A study of Homo sapiens with 23 samples.

Results

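The response of CaSki cells to a synthetic mimic of miR-23b-3p was described gene by gene. CaSki is an established HPV-positive line derived from a metastasis of a cervical squamous carcinoma. The members are all 61217 genes of the comparison of 3 CaSki libraries transfected with 100 nM of hsa-miR-23b-3p mimic with 3 CaSki libraries transfected with 100 nM of the negative control mimic n#1. The series holds 23 RNA libraries in 8 groups, from CaSki and from the HPV-negative cervical carcinoma line C-33A, each given the same control or a mimic of miR-23b-3p, miR-124-3p or miR-218-5p at the same dose. It gives 6 comparisons of a mimic with the control of its line, of which 4 were used: miR-23b-3p in CaSki, the same mimic in C-33A (3 libraries against 3 controls), and the other mimics in CaSki. Both lines were grown in high-glucose DMEM with fetal bovine serum, and their RNA was enriched with oligo(dT) and primed with random hexamers. Whether replicate libraries are separate cultures is not stated in the labels, and the p-values may thus measure technical spread only. The 3 CaSki comparisons share the same control libraries, whereas the C-33A comparison shares no library with them. No values of single libraries were used, and library depth is unknown.

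A microRNA guides an Argonaute protein to messenger RNAs whose 3' untranslated region (3' UTR) pairs with its seed, the bases near its own start, and the bound complex lowers translation and speeds deadenylation and decay. A transfected mimic is a duplex of which the guide strand loads into Argonaute in large excess over the cell's own microRNAs. miR-23b-3p belongs to the miR-23 family, is transcribed with miR-27b and miR-24 from an intron of AOPEP, and has been studied in cervical and other carcinomas for its effects on migration, proteolysis and TGF-beta signalling.

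The RefSeq records (GRCh38.p14) give 3 mature family members, which share 1 seed, bases 2 to 8, shown in capitals. They are printed because every match counted in this text is a match to that seed.
hsa-miR-23b-3p: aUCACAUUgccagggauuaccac
hsa-miR-23a-3p: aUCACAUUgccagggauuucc
hsa-miR-23c: aUCACAUUgccagugauuaccc

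The miR-23b-3p sequence lies at chr9:95085265-95085287 on the plus strand. A 7mer-m8 match is the DNA complement AATGTGA of the whole seed, an 8mer is AATGTGAA, a 7mer-A1 is ATGTGAA without a match to base 8, and a 6mer is ATGTGA alone. Matches were sought on the transcript strand, in the 3' UTR that GENCODE release 29 (GRCh38) gives for each gene's longest coding transcript. The windows below hold 30 bases of genes on which the results turn, 5′ to 3′ along the transcript, with the match in capitals. The first 7 windows belong to genes that fell in both lines, the next pair to published targets that fell in CaSki, and the last to a published target with 8mers that was not called.
DDAH1 7mer-m8: gctaatgaattatcaaAATGTGAttaatcc
SEC23A 8mer, nearer the stop codon: aacaatagtaatgataAATGTGAAcatttt
SEC23A 8mer, farther from it: cccgcagctgacaaaaAATGTGAAatttcc
B4GAT1 8mer: ctgtaagcttcgtacaAATGTGAAgtatta
EIF4EBP2 8mer: tgttttctgccacaaaAATGTGAAtagttc
SMS 7mer-m8: tgaccccccccattagAATGTGAtttttgt
MSMO1 7mer-m8: ttgagctcttgaaataAATGTGAtttttgt
HMGB2 8mer: caattattttgctaagAATGTGAAttcaag
CCNG1 8mer: caaagctaaaagcctaAATGTGAAatgcta
TGFBR2 8mer: cagtccacgttcacaaAATGTGAAggtgtg

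A call needs a false discovery rate (FDR, the deposited adjusted p of edgeR) under 0.05. The change is the log2 fold change of mimic against control, and its standard error (SE) was recovered from the deposited p-value by a normal quantile. For called CaSki genes this SE exceeds the one that the deposited test score (F) gives, so their intervals are wide. Of the 61217 listed genes, 863 rose (1.41%) and 609 fell (0.995%). A gene counted as measured where its average log2 CPM (a count scaled to library size) reached 0, and of the 15476 measured genes 812 rose (5.25%) and 594 fell (3.84%). These percentages are the background against which each count below is read. The changes were small: the median of the measured rises was 0.66 and 93 of them reached 1, whereas the median of the falls was -0.50 and 27 reached -1. The median over all measured genes was 0.00, and 4599 measured genes had an unadjusted p under 0.05. A further 51 rises and 15 falls were of genes below the measured level.

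Markers matched the label of a squamous carcinoma line. All 15 markers of such a line were measured, led by the basal keratin KRT5 at a log2 CPM of 12.1 and KRT17 at 11.2 in the authors' deposited table. Among markers of other cells, 0 of 10 leukocyte and 0 of 5 erythroid genes, 2 of 10 fibroblast genes (FAP and COL1A1) and 1 of 8 endothelial genes (CDH5) were measured, and none of these 3 was called. FAP reached a log2 CPM of 6.56 in the authors' deposited table. Some genes had an uneven spread within the CaSki libraries. Of 11374 genes at a log2 CPM of at least 2, 466 had an SE over 1. By the deposited edgeR test 0 of these were called, and 1 had an unadjusted p under 0.05. They included 60 of 65 such genes of the major histocompatibility complex region (chr6:28903002-33457548), all 60 below 0 with a median of -11.87. They also included 219 of 395 pseudogenes, 192 of these above 0, and all 19 genes of the mitochondrial genome. Of the 466, 227 were protein coding, 207 of these below 0, with a median of -8.47 over the 227. Most of the 227 thus lie outside the histocompatibility region and the mitochondrial genome. RPS18, a ribosomal protein gene of the histocompatibility region picked with its value known, stood at -16.09 (SE 8.43) at a log2 CPM of 8.49 in the authors' deposited table. The other CaSki comparisons held 379 genes of this kind with miR-124-3p and 376 with miR-218-5p, and the C-33A comparison held 11. The 60 genes of the histocompatibility region had medians of -11.33 with miR-124-3p, -11.09 with miR-218-5p and 0 in C-33A. Falls of this size in all 3 CaSki comparisons place the reads of these genes mostly in the shared control libraries. Which single libraries carry the spread cannot be told apart in these tables, and its part in the other results was not tested.

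Because the control libraries enter all 3 CaSki comparisons, medians of most gene lists, and values of some genes, are also given as a contrast between mimics, added after the data were seen. It is the log2 fold change with miR-23b-3p minus the mean of those with miR-124-3p and miR-218-5p. The controls cancel in it, it carries no test, and the effects of the other mimics remain in it. Most lists are given too with the median of all measured genes, coding or not, of like transcript length and GC content subtracted. The result is called the length-matched value. By that value 807 genes rose (5.36%) and 638 fell (4.24%) of 15048 measured genes with a length, of which 495 rises and 284 falls were also called as deposited.

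A small set of genes fell in both lines, and 6 of its 7 members hold a seed match. In C-33A the same mimic gave 19 falls and 10 rises, 18 of the falls (0.116% of the genes measured in CaSki) and 9 of the rises (0.0582%) among genes measured in CaSki. The lists shared 7 falls, 36.8% of the C-33A falls and 1.15% of the CaSki falls, and they shared 0 rises. No gene was called with opposite signs. Of the 7 shared falls, 3 held an 8mer and 3 others a 7mer-m8. Over all measured genes with a 3' UTR, 3536 hold an 8mer or 7mer and 8369 do not. Of the 18 C-33A falls measured in CaSki, 13 stood below 0 there, with a median of -0.44 and a length-matched median of -0.40.

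DDAH1, which hydrolyses asymmetric dimethylarginine, an inhibitor of nitric oxide synthases, fell by 1.07 (95% interval -1.38 to -0.75, adjusted p = 3.16e-07) in the authors' deposited table. Its value was -0.97 in C-33A, but 0.45 with miR-124-3p and 0.26 with miR-218-5p in CaSki, so the contrast between mimics was -1.42. Its match shown above lies at chr1:85321195-85321201 on the minus strand, and a 7mer-A1 lies farther along the same 3' UTR. SEC23A, a subunit of the inner coat of COPII vesicles that leave the endoplasmic reticulum, fell by 0.86 (95% interval -1.12 to -0.60, adjusted p = 9.26e-07) in the authors' deposited table. It stood at -0.86 in C-33A and within 0.09 of 0 with the other mimics in CaSki. Both of its 8mers, at chr14:39032821-39032827 and chr14:39032593-39032599, are on the minus strand. SMS, the spermine synthase of the polyamine pathway, fell by 0.70 (95% interval -0.94 to -0.45, adjusted p = 2.3e-05) in the authors' deposited table, with -0.88 in C-33A and a 7mer-m8 at chrX:21994610-21994616. In the contrast between mimics these 3 genes ranged from -1.42 to -0.64.

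B4GAT1, a glucuronyltransferase that builds the laminin-binding glycan of dystroglycan, fell by 0.97 (95% interval -1.35 to -0.60, adjusted p = 0.000154) in the authors' deposited table. In C-33A it stood at -0.99, and its 8mer lies at chr11:66345726-66345732 on the minus strand, next to a 7mer-A1. EIF4EBP2, a repressor that binds the cap-binding initiation factor, fell by 0.52 (95% interval -0.74 to -0.29, adjusted p = 0.00121) in the authors' deposited table, against 0.45 with miR-124-3p and 0.19 with miR-218-5p. Its C-33A value was -0.87 and its 8mer lies at chr10:70423733-70423739. MSMO1, which demethylates sterol intermediates of cholesterol synthesis, fell by 0.44 (95% interval -0.67 to -0.22, adjusted p = 0.0102) in the authors' deposited table, with -0.72 in C-33A and a 7mer-m8 at chr4:165343053-165343059. ZNF45, a zinc finger gene with no match in its 3' UTR, fell by 0.51 (adjusted p = 0.035) in the authors' deposited table and stood at -0.79 in C-33A. All 7 remained called with the length-matched value, which ranged from -1.08 for DDAH1 to -0.40 for MSMO1. None of the 7 differed between lines by the test of the difference, with adjusted p from 0.39 for EIF4EBP2 to 0.998 for SEC23A, though such p-values do not show that the responses were equal.

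**Figure D1:**
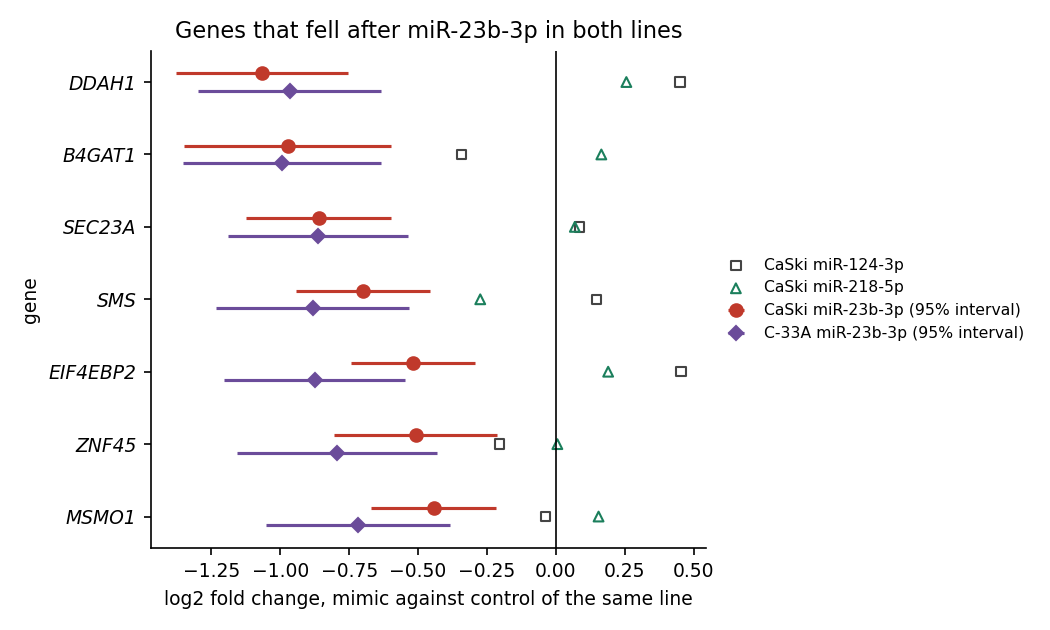
Log2 fold change (x axis) of the 7 genes (y axis) that fell after miR-23b-3p in both lines, with 95% intervals for CaSki and C-33A and points for the other CaSki mimics. The CaSki miR-23b-3p values lie between -1.07 and -0.44 and those of C-33A between -0.99 and -0.72, while DDAH1 and EIF4EBP2 each stand at 0.45 with miR-124-3p.

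Further genes were picked with their values known. NACC2, a transcriptional repressor with an 8mer and a pair of 7mer-m8 matches, fell by 0.88 (SE 0.199, adjusted p = 0.00159) in the authors' deposited table and stood at -0.89 in C-33A, where it was not called. LBR, the lamin B receptor of the inner nuclear membrane, fell by 0.52 in the authors' deposited table, with -0.44 in C-33A and 0.23 and 0.37 with the other CaSki mimics. RAB8B, a small GTPase of vesicle traffic, was called in C-33A at -0.86 and stood at -0.44 (adjusted p = 0.0819) in CaSki, and FAM234B was called in C-33A at -1.36 and stood at -0.48 (adjusted p = 0.263) in CaSki, both in the authors' deposited tables.

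Across all genes with a 3' UTR, seed matches did not go with lower values in CaSki as deposited. The 3536 measured genes with an 8mer or 7mer had a median of 0.06, and the 6936 genes with no match had -0.07, a difference of 0.13. It was 0.11 for the 1209 genes with an 8mer, of which 92 rose (7.61%) and 53 fell (4.38%). Genes with matches have long 3' UTRs, with a median of 2849 nt (8mer or 7mer) against 772 nt without a match, and long transcripts moved upward in CaSki. By the length-matched value the differences turned to -0.024 and -0.070. In the contrast between mimics they were 0.056 and 0.031.

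Within each class of 3' UTR length the order was reversed for 8mers, most below 1000 nt. Below 500 nt, 46 genes with an 8mer had a median of -0.30 and 9 of them fell (19.6%), and 2444 genes without a match had a median of -0.19 and 247 fell (10.1%). From 500 to 1000 nt the medians were -0.21 over 83 genes with an 8mer and -0.09 over 1650 without a match, with 15.7% and 3.88% fallen. From 1000 to 2000 nt they were -0.07 and -0.00, and from 2000 to 4000 nt 0.03 and 0.07. At 4000 nt or more, 8mer genes stood at 0.14 and genes without a match at 0.16, and 49 of 428 8mer genes rose against 4 that fell. The difference between 8mer genes and genes without a match thus lay from -0.12 to -0.021 in the 5 classes, while both moved upward with length. For 8mer and 7mer genes together the differences were near 0, at -0.047, -0.0040, -0.019, 0.0054 and -0.0021 from the shortest class to the longest. Genes are not replicates, so no test is given for these medians.

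**Figure D2:**
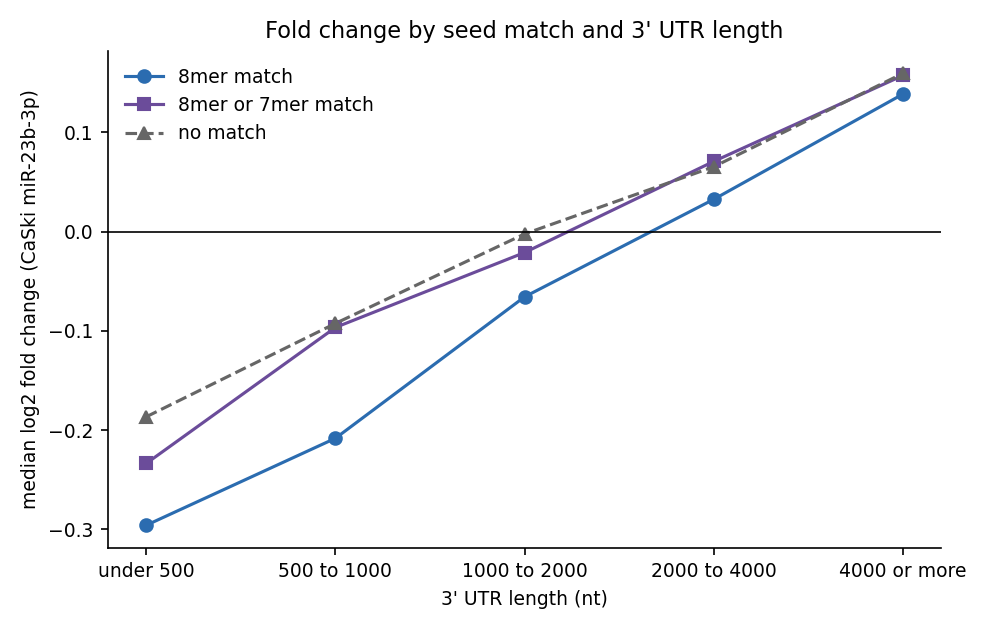
Median log2 fold change after miR-23b-3p in CaSki (y axis) in 5 classes of 3' UTR length in nt (x axis), for measured genes with an 8mer, with an 8mer or 7mer, and with no match. All 3 lines climb from the shortest class, at -0.30 for 8mer genes, to the longest, at 0.14.

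The C-33A values of the CaSki falls ordered by match. Among genes measured in both lines with a 3' UTR, 46 of 48 CaSki falls with an 8mer stood below 0 in C-33A (95.8%, median -0.27). This held for 30 of 38 falls with a 7mer-m8, 17 of 26 with a 7mer-A1, 10 of 26 with a 6mer and 93 of 369 with no match (25.2%, median 0.09). Of all 1099 8mer genes, 817 stood below 0 in C-33A (74.3%), and of the 88 that rose in CaSki 51 did (58.0%). With length-matched C-33A values the shares were 44 of 48 for falls with an 8mer and 156 of 369 for falls without a match (42.3%). The lines share no library, so the C-33A values had no part in choosing the CaSki falls.

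The 10 falls with an 8mer of lowest p, which include SEC23A and B4GAT1 above, were otherwise genes of varied function. CCK, the peptide hormone cholecystokinin, fell by 0.90 (SE 0.149, adjusted p = 4.48e-06) in the authors' deposited table and stood at -0.18 and -0.14 with the other CaSki mimics. SNRPC, a protein of the U1 splicing particle, fell by 0.70 and ISCA2, an assembly factor of mitochondrial iron-sulfur clusters, by 0.75 in the authors' deposited table. HMGB2, a chromatin architectural protein and published target, fell by 0.66 (SE 0.127, adjusted p = 0.00011) in the authors' deposited table, with -0.35 in C-33A and a match at chr4:173332010-173332016. RPS19BP1 (-0.77), the nucleolar helicase DDX47 (-0.64), the deubiquitinase OTUB1 (-0.60) and the cytochrome oxidase subunit COX7B (-0.59) completed the set in the authors' deposited table. Their contrasts between mimics ran from -0.22 for COX7B to -0.94 for SEC23A. Under length matching RPS19BP1 (-0.37, adjusted p = 0.0696) and OTUB1 (-0.35, adjusted p = 0.0557) were no longer called.

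Published targets of miR-23b-3p, a list drawn from background knowledge, held more rises than falls. Of 44 measured members 8 rose and 3 fell, with a median of 0.14 against 0.00 over all measured genes, and of 0.08 with the length-matched value, by which 6 rose and 5 fell. Their median was -0.07 in C-33A and 0.03 in the contrast between mimics. HMGB2, the cyclin CCNG1 (-0.50) and the death-receptor adaptor FADD (-0.52) fell in the authors' deposited table. CCNG1 stood at 0.02 and 0.07 with the other CaSki mimics and at -0.29 in C-33A, and its 8mer lies at chr5:163443895-163443901, whereas FADD holds no match and lost its call with the length-matched value (-0.29).

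The 8 published targets that rose include receptors, signal transducers and a transcription factor. The receptor NOTCH2 (0.65), its ligand JAG1 (0.59) and NOTCH1 (0.60) rose in the authors' deposited table, as did the signal transducers SMAD3 (0.64) and SMAD4 (0.58). RUNX2, an osteogenic transcription factor, rose by 0.67 (SE 0.15, adjusted p = 0.00131), CDC42, a GTPase of filopodia, by 0.66 and the receptor tyrosine kinase MET by 0.49 in the authors' deposited table. All 8 except NOTCH1 and CDC42 hold an 8mer or 7mer match. MET stood at 0.64 and 0.55 with the other CaSki mimics, and its contrast between mimics was -0.11, while that of the other 7 ran from 0.26 to 0.57. With the length-matched value NOTCH1, NOTCH2 and SMAD4 were no longer called.

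Several well-known targets did not pass the test. The TGF-beta receptor TGFBR2 has 2 8mer matches and stood at 0.02 (SE 0.126) in the authors' deposited table. The urokinase gene PLAU (0.13), the repressor ZEB1 (0.12, at a log2 CPM of 1.59), the kinase CHUK (-0.34, adjusted p = 0.0931) and the ubiquitin ligase subunit VHL (-0.30) were also not called in the authors' deposited table. By the length-matched value CHUK and VHL were called. These 5 genes were picked with their values known.

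The machinery of microRNA action moved upward in part. Of 20 measured genes of Argonaute, TNRC6 and microRNA processing 5 rose and 0 fell, with a median of 0.32, a length-matched median of 0.07 (2 rose and 1 fell) and a contrast between mimics of 0.13. ANKRD52, a subunit of the phosphatase that restores Argonaute after target release, rose by 1.05 (SE 0.164, adjusted p = 9.26e-07) in the authors' deposited table, with 0.86 with miR-124-3p, 0.25 with miR-218-5p and 0.54 in C-33A. The Argonautes AGO1 (0.76), AGO2 (0.50) and AGO3 (0.55) and the uridylyltransferase TUT4 (0.47) also rose in the authors' deposited table. AGO2 reached 0.52 with each of the other mimics, so its contrast between mimics was -0.02. None of the 3 Argonaute rises was called with the length-matched value. AGO2 and AGO3 each hold 5 8mer or 7mer matches.

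Among 42 mRNA decay factors 6 rose and 1 fell (median 0.25, contrast 0.13). By the length-matched value 4 rose and 3 fell (median 0.20). Subunits of the CCR4-NOT deadenylase, CNOT9 (0.64), CNOT6L (0.68) and CNOT11 (0.68), rose in the authors' deposited table, with the deadenylase partner BTG1 (0.52), and the exosome subunit EXOSC5 fell by 0.63 but lost its call with the length-matched value (-0.23). CNOT6L differed between lines, at -0.36 in C-33A (adjusted p of the difference 0.00774, and 0.152 with length-matched values), and holds 6 matches. AOPEP, the host gene of the microRNA, was not called, at -0.24 in the authors' deposited table.

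The 12 largest rises among well-expressed protein coding genes include regulators of transcription, chromatin and protein turnover. EP300 led at 1.30 (adjusted p = 0.0141) in the authors' deposited table, with the widest recovered error of the 12 (SE 0.351). With the length-matched value it was not called (0.97, adjusted p = 0.0575 by the normal test), which rests on that recovered SE. The transcription factor TFAP2A at 1.16 had the lowest p of all genes that rose. The cytokinesis kinase CIT (1.15), the ubiquitin ligase UBR4 (1.14) and the phospholipid flippase ATP11A (1.15) followed in the authors' deposited table. HUWE1 (0.99), another ubiquitin ligase, and the imprinted gene MEST (0.99) rose less but were among the 6 rises of lowest p in the authors' deposited table. ARID1A (1.10), a subunit of SWI/SNF remodellers, the CCAAT-binding factor NFIC (1.09), NHSL2 (1.12), the signal recognition particle receptor SRPRA (1.04), ATXN2L (1.03) and FOXRED2 (1.03), which acts in degradation from the endoplasmic reticulum, also rose with ANKRD52 (1.05) in the authors' deposited table. NFIC stood at -0.09 with miR-124-3p and 0.34 with miR-218-5p and had the largest contrast between mimics of the 12 largest rises, 0.97. The 11 others of these rises, which include ANKRD52, had values of 0.51 (NHSL2) to 0.86 (ANKRD52) with miR-124-3p, of 0.25 (ANKRD52) to 0.75 (SRPRA) with miR-218-5p, and contrasts from 0.33 (SRPRA) to 0.68 (NHSL2). UBR4, HUWE1 and ATP11A differed between lines, with adjusted p of the difference of 0.0216, 0.0132 and 0.0231, but not with length-matched values (0.212, 0.171 and 0.286).

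TFAP2A belongs to the AP-2 family of epithelial and neural crest regulators. Its relative TFAP2C stood at 0.41 (adjusted p = 0.218) in the authors' deposited table, TFAP2E lay just below the measured level, and TFAP2B and TFAP2D are listed at a log2 fold change of 0 with the lowest average. In C-33A TFAP2A stood at 0.83, below the measured level there.

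**Figure D3:**
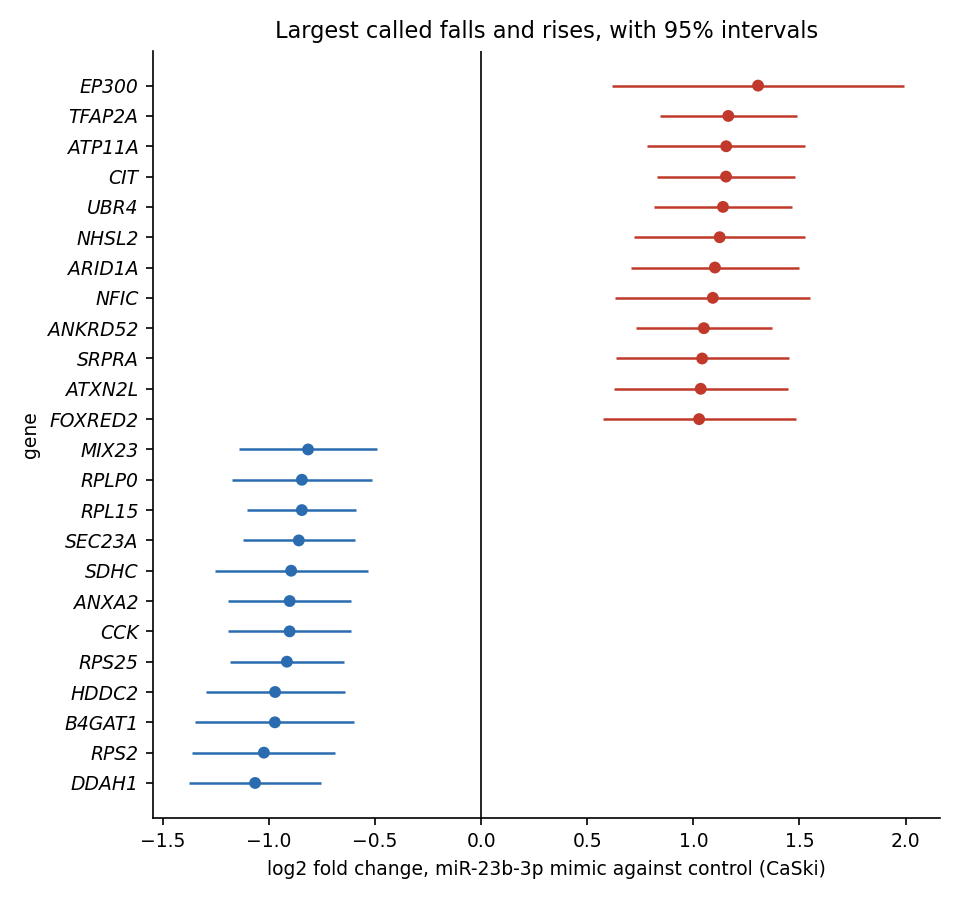
Log2 fold change after miR-23b-3p in CaSki (x axis) with 95% intervals for the 12 largest rises and 12 largest falls (y axis) among the coding genes called at a log2 CPM of at least 4. EP300 at 1.30 has the widest interval and is not called with the length-matched value, and DDAH1 at -1.07 is the largest fall.

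The 12 largest falls comprise DDAH1, SEC23A, B4GAT1 and CCK, 4 ribosomal protein genes and 4 genes of other functions. ANXA2, the annexin that binds phospholipids and plasminogen at the cell surface, fell by 0.90 (SE 0.147, adjusted p = 3.93e-06) in the authors' deposited table. It stood at -0.59 and -0.51 with the other CaSki mimics and at 0.05 in C-33A, and the difference between lines passed its test (adjusted p = 0.00774, and 0.0513 with length-matched values). HDDC2, a nucleotide phosphatase with a 7mer-m8, fell by 0.97 in the authors' deposited table, with -0.56 in C-33A and a contrast between mimics of -0.71. SDHC, a membrane subunit of succinate dehydrogenase, fell by 0.90 and MIX23 by 0.82 in the authors' deposited table, and both had lower length-matched values, of -1.22 and -1.04.

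Many genes of translation fell. Of 85 measured cytosolic ribosomal protein genes 36 fell and 1 rose, against 3.84% and 5.25% of all measured genes, and 82 stood below 0. Their median was -0.53, and it was -0.50 with the length-matched value, by which 29 fell and 1 rose. Without the 14 members with an SE over 1 the median was -0.44. Over all members it was -0.38 with miR-124-3p and -0.20 with miR-218-5p, and the contrast between mimics was -0.24. Protein coding genes of 1000 to 1500 nt, around the list's median length of 1171 nt, had a median of -0.27 and a contrast of -0.13. In C-33A the median of the list was -0.0033. Between lines 8 members differed, against 220 of 12905 genes measured in both lines (1.7%), of all genes 34 with length-matched values. The libraries are bulk samples, in which fewer cells of a kind and less RNA per cell cannot be told apart.

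RPS25, a protein of the small subunit, fell by 0.92 (SE 0.138, adjusted p = 3.54e-07) in the authors' deposited table, and stood at -0.73 and -0.59 with the other CaSki mimics. RPS2 (-1.02), RPL15 (-0.85), the stalk protein RPLP0 (-0.85), RPL3 (-0.75), which lies near the peptidyl transferase centre, and RPL27 (-0.62) also fell in the authors' deposited table. The member that rose was RPL26 (0.61 in the authors' deposited table), picked with its value known. Ribosomal protein genes have many processed pseudogenes, so reads may be split among copies. The 949 measured pseudogenes, of any parent gene, had a median of 0.37, on the other side of 0. Whether reads moved between copies was not tested. The 24 falls among 82 mitochondrial ribosomal protein genes came with 0 rises and a median of -0.33. The small-subunit proteins MRPS12 (-0.60), MRPS17 (-0.65) and MRPS26 (-0.56) and the large-subunit proteins MRPL28 (-0.56) and MRPL24 (-0.58) fell in the authors' deposited table. Under length matching 13 fell and 2 rose (median -0.21), with MRPS26, MRPL28 and MRPL24 no longer called, and the contrast between mimics was -0.16. Protein coding genes of 1500 to 2000 nt, the class of this list's median length, had a median of -0.21 and a contrast of -0.10.

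Initiation factors divided. Of 52 measured genes 9 fell and 3 rose, with a median of -0.08 and a contrast between mimics of -0.03. With the length-matched value 7 fell and 2 rose. EIF3C fell by 1.81 (SE 0.337, adjusted p = 5.47e-05) in the authors' deposited table, at a log2 CPM of 1.34, but it has a near-identical copy, EIF3CL, between which reads may be split. EIF2S2, the beta subunit of the factor that brings initiator tRNA, fell by 0.59 and EIF3E by 0.50 in the authors' deposited table. The scaffold EIF4G3 rose by 0.56 in the authors' deposited table. Aminoacyl-tRNA synthetase genes gave 1 rise, AARS1 (0.50), and 1 fall, the scaffold AIMP2 (-0.57), among 22 measured (length-matched 2 rises and 3 falls) in the authors' deposited table. The proteasome list had 4 falls and 1 rise among 44 members (median -0.21, length-matched -0.08), among them the core subunits PSMB4 (-0.41), PSMB5 (-0.43) and PSMA3 (-0.38), while the lid subunit PSMD12 rose by 0.40 in the authors' deposited table. By the length-matched value 3 proteasome genes fell and 1 rose, and PSMB4, PSMB5 and PSMD12 were no longer called.

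Nuclear genes of oxidative phosphorylation moved the same way. Of 79 measured members 26 fell and 0 rose, 73 stood below 0, and the median was -0.31. The length-matched median was -0.28, with 27 fallen and 2 risen, the contrast between mimics was -0.17, and the C-33A median was -0.02. NDUFA4, an accessory subunit of cytochrome oxidase, fell by 0.70 (SE 0.128, adjusted p = 3.06e-05) in the authors' deposited table. The complex III subunit UQCRB (-0.63) and the ATP synthase subunits ATP5MF (-0.67) and ATP5MK (-0.63) fell in the authors' deposited table. The 13 mitochondrially encoded genes went to the other side of 0 with a median of 1.48, but by the deposited edgeR test 0 were called, 0 of the 19 genes of that genome had an unadjusted p under 0.05, and their SEs were all over 1. They ranged from 0.81 (MT-ATP8) to 2.03 (MT-CO2) in the authors' deposited table.

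Replication-dependent histone genes encode the core histones deposited in S phase, and their messenger RNAs end in a stem-loop instead of a poly(A) tail. Of 54 measured members 29 fell and 0 rose, with a median of -0.51. The same list had a median of -0.60 with miR-124-3p and -0.32 with miR-218-5p, and the contrast between mimics was -0.04. In C-33A the median was 0.25, and 16 members differed between lines, against 220 of 12905 genes measured in both lines (1.7%). With length-matched values 34 genes in all differed. By them H2AC13 and H2AC20 no longer passed the test of the difference (adjusted p = 0.174 and 0.445). H2AC13 fell by 0.67 (SE 0.124, adjusted p = 4.94e-05) and H4C3 by 0.60 in the authors' deposited table, with H2BC10 (-0.64) and H2AC20 (-0.63). H4C15, one of several identical H4 copies among which reads may be split, fell by 1.31 at a log2 CPM of 2.75 in the authors' deposited table. The length-matched median was -0.32, with 13 fallen, and H2BC10 and H2AC20 were no longer called. Protein coding genes under 1000 nt, the class of this list's median length, had a median of -0.40 as deposited. Since the libraries were enriched with oligo(dT), the level of transcripts without a tail depends also on the enrichment, whose part in the result was not tested. Among 11 variant histones with polyadenylated transcripts H2AX (-0.73) and H2AJ (-0.55) fell in the authors' deposited table, neither of which was called with the length-matched value.

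Many regulators of chromatin rose. Of 27 histone acetyltransferases and coactivators 12 rose and 0 fell, with a median of 0.59, a length-matched median of 0.32 (6 rose) and a contrast between mimics of 0.25. With EP300 (not called by the length-matched value), its paralogue CREBBP (0.88), the scaffold TRRAP (0.91), the Mediator subunits MED12 (0.94) and MED14 (0.73) and the nuclear receptor coactivator NCOA3 (0.59) rose in the authors' deposited table. MED14 and CREBBP differed between lines (adjusted p of the difference 0.00873 and 0.0463, but 0.127 and 0.365 with length-matched values), with -0.18 and 0.06 in C-33A. The C-33A median of the list was 0.05.

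Of 38 histone methyltransferases and demethylases 13 rose and 0 fell (median 0.28, length-matched 0.12 with 6 risen, contrast 0.10). KMT2A (1.00), KMT2C (0.90) and KMT2D (0.76), which methylate lysine of histone H3 at promoters and enhancers, rose in the authors' deposited table, as did SETD5 (0.83) and ASH1L (0.56). Among 28 chromatin remodelling genes 11 rose and 0 fell (median 0.40, length-matched 0.15 with 4 risen, contrast 0.18). The alternative SWI/SNF ATPases SMARCA4 (0.85) and SMARCA2 (0.69) rose in the authors' deposited table, with ARID1B (0.80) and BAZ2A (0.73). Under length matching KMT2D (0.42), ASH1L (0.24) and BAZ2A (0.38) were no longer called. The median transcript lengths of these 3 lists were 7722, 6582 and 8009 nt, against 2974 nt over all measured genes.

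**Figure D4:**
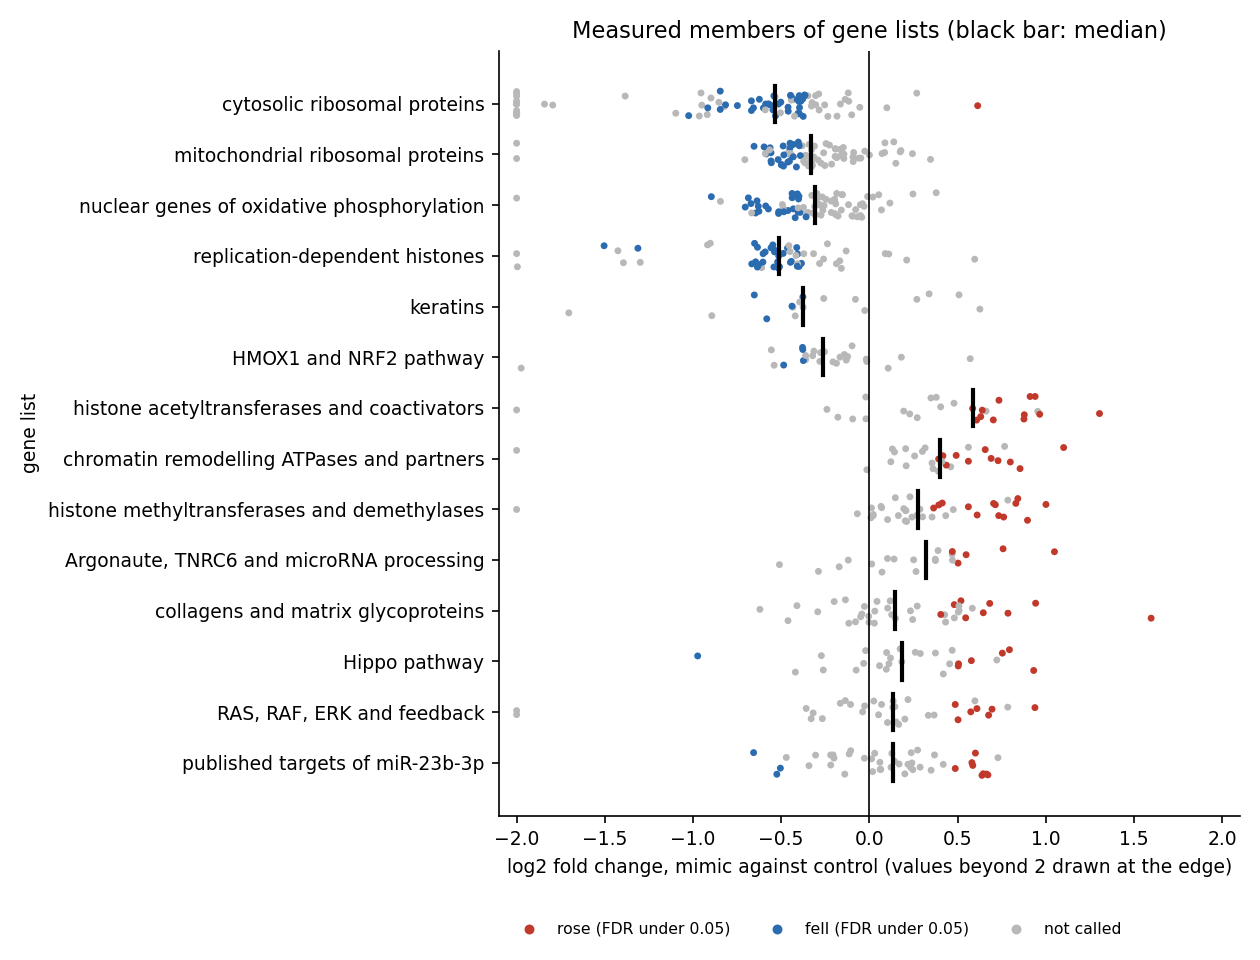
Log2 fold change after miR-23b-3p in CaSki (x axis) of each measured member of 14 gene lists (y axis), coloured by call, with the list's median as a black bar and values beyond 2 drawn at the edge. The cytosolic ribosomal protein list sits at a median of -0.53 and the acetyltransferase list at 0.59.

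RNA-binding proteins of splicing moved in both directions, with 4 rises and 1 fall among 35 SR proteins and hnRNPs. HNRNPUL1 (0.75), the splicing coactivator SRRM1 (0.82), HNRNPH3 (0.60) and HNRNPD (0.50) rose, and HNRNPC fell by 0.62 in the authors' deposited table. With the length-matched value 7 of this list rose and 3 fell.

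Some matrix genes rose. Of 39 measured collagens and matrix glycoproteins 9 rose and 0 fell, with a median of 0.15 and a contrast between mimics of 0.05. By the length-matched value 7 rose and 2 fell (median 0.16). Fibronectin, FN1, rose by 0.94 (SE 0.165, adjusted p = 1.68e-05) in the authors' deposited table and stood at 0.36 and 0.30 with the other CaSki mimics and at -0.12 in C-33A, with an adjusted p of the difference of 0.0244 (0.262 with length-matched values). MXRA5, a matrix remodelling glycoprotein, rose by 1.60 at a log2 CPM of 2.62 in the authors' deposited table. TNC (0.68) and the metalloproteinase inhibitor TIMP2 (0.65) also rose in the authors' deposited table, TNC without a call by the length-matched value (0.33). The laminin chains LAMC1 (0.61) and LAMB1 (0.43) rose in the authors' deposited table among 9 measured chains, and the integrin ITGA5 (0.50), the alpha chain of a fibronectin receptor, was the single call among 15 integrin subunits. Under length matching the laminin median went from 0.17 to -0.02 and neither chain was called (LAMC1 0.31, LAMB1 0.29). VIM, the intermediate filament of mesenchymal cells, rose by 0.38 in the authors' deposited table, with -0.73 with miR-124-3p and 0.09 with miR-218-5p.

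Genes of the cytoskeleton and of adhesion gave 8 rises and 4 falls among 47 measured (median 0.22, contrast 0.08), and 5 rises and 2 falls with the length-matched value (median 0.12). The actin crosslinker ACTN1 (0.76), the focal adhesion proteins PXN (0.72) and TLN1 (0.74) and the spectrin SPTBN1 (0.91) rose, and the myosin light chains MYL6 (-0.56) and MYL12B (-0.37), the Arp2/3 subunit ARPC3 (-0.40) and the tropomyosin TPM1 (-0.38) fell in the authors' deposited table, the last 3 picked with their values known. TLN1 stood at -0.50 with miR-124-3p. The calls of TLN1, SPTBN1, MYL6 and MYL12B ended with the length-matched value. Epithelial genes were mixed. Of 17 measured keratins 4 fell and 0 rose, namely KRT81 (-0.65), KRT8 (-0.58), KRT19 (-0.44) and KRT17 (-0.38) in the authors' deposited table, and with the length-matched value the median moved from -0.38 to -0.08, with 2 fallen and 1 risen and KRT81, KRT19 and KRT17 no longer called. KRT5 stood at -0.03 (SE 0.0965) in the authors' deposited table. Among 32 junction genes plakoglobin, JUP (0.72), NECTIN1 (0.85) and CTNND1 (0.42) rose and the plakophilin PKP3 fell by 0.42 in the authors' deposited table, where CTNND1 and PKP3 lost their calls with the length-matched value (2 rises and 0 falls). The differentiation genes CSTA (-0.72) and KLK5 (-0.56, not called length-matched) fell among 16 measured in the authors' deposited table. Among 22 measured epithelial transcription factors TFAP2A and PAX8 (0.48) rose in the authors' deposited table, while TP63 was not called at 0.38 (adjusted p = 0.0811).

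Members of several signalling pathways were called. The TGF-beta list gave 5 rises and 1 fall among 33 measured, as it did with the length-matched value (median 0.27, length-matched 0.14, contrast 0.15). The BMP receptor BMPR2 rose by 0.78 (SE 0.141, adjusted p = 3.06e-05) in the authors' deposited table although it holds an 8mer. SMAD3, SMAD4 and the ubiquitin ligase SMURF1 (0.65) rose with it, and ID1, a target of BMP signalling, fell by 0.60 in the authors' deposited table, against -1.09 with miR-124-3p and -0.60 with miR-218-5p. In the Hippo list 6 of 27 rose and 1 fell, with a contrast between mimics of 0.17. With the length-matched value 4 rose and 3 fell, and LATS1 (0.33) was no longer called. The coactivators YAP1 (0.58) and WWTR1 (0.93), their DNA-binding partner TEAD1 (0.75), the kinase LATS1 (0.51) and the atypical cadherin FAT2 (0.79) rose in the authors' deposited table. Its fall was ANKRD1 (-0.97 in the authors' deposited table), an ankyrin repeat protein at a log2 CPM below 2, picked with its value known. TEAD1 differed between lines, at -0.12 in C-33A (adjusted p of the difference 0.0101, and 0.152 with length-matched values), and stood at -0.13 with miR-124-3p.

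The Notch list gave 6 rises and 4 falls among 25 (median -0.04, contrast 0.02), and 4 rises and 2 falls with the length-matched value. Besides NOTCH1, NOTCH2 and JAG1, the coactivator MAML2 (0.65), the DNA-binding factor RBPJ (0.50) and the inhibitor NUMB (0.68) rose in the authors' deposited table. Its falls were HES4 (-0.64), DLL3 (-0.69), the gamma-secretase subunit PSENEN (-0.50) and the glycosyltransferase LFNG (-0.43) in the authors' deposited table, these 4 picked with their values known. Of those falls PSENEN alone was called with the length-matched value. In the RAS list 7 of 33 rose and 0 fell (median 0.13, length-matched 0.18 with 6 risen, contrast 0.15). NRAS (0.61), BRAF (0.57), the GTPase-activating protein RASA1 (0.50) and PHLDA1 (0.68) rose in the authors' deposited table. NRAS stood at -0.19 and -0.07 with the other mimics, a contrast of 0.74, and PHLDA1 differed between lines (adjusted p of the difference 0.0227, and 0.131 with length-matched values).

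The receptor tyrosine kinases IGF1R (1.03), EGFR (0.78, log2 CPM 10.1) and MET rose in the authors' deposited table, in a list of 30 measured genes of receptors and the urokinase system that gave 4 rises and 0 falls (length-matched 4 and 1, contrast 0.05). EGFR was not called with the length-matched value (0.38, adjusted p = 0.123). Among 32 mTOR and PI3K genes MTOR (0.61) and PIK3CB (0.55) rose and EIF4EBP2 and AKT1 (-0.50) fell in the authors' deposited table. By the length-matched value 1 gene of that list rose and 3 fell, and MTOR (0.25, adjusted p = 0.211) was no longer called. The NF-kB subunits REL (0.83), NFKB2 (0.69) and RELA (0.49) were the 3 rises among 28 genes of that list, with 0 falls, in the authors' deposited table (length-matched 3 rises and 1 fall, contrast 0.14). Interferon response genes gave 3 rises and 1 fall among 40 measured, among them ADAR (0.50), ZC3HAV1 (0.40) and BST2 (-0.50) in the authors' deposited table. In that list 5 members, TAP1 among them, had an SE over 1. Under length matching 1 interferon gene rose and 2 fell, and ADAR, ZC3HAV1 and BST2 were no longer called.

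Cell cycle lists had medians near 0. The G1/S list gave 4 rises and 2 falls among 43 (median 0.02) and the G2/M list 6 rises and 1 fall among 47 (median 0.07), and with the length-matched value they gave 3 rises and 1 fall and 5 rises and 0 falls. CDK6, the kinase that starts phosphorylation of the retinoblastoma protein, rose by 0.72 (SE 0.126, adjusted p = 1.98e-05) in the authors' deposited table, at -0.40 with miR-124-3p, 0.12 with miR-218-5p and -0.19 in C-33A. RB1 itself (0.41) and the polymerase POLE (0.58) rose, and PCNA, the sliding clamp of DNA polymerases, fell by 0.36 in the authors' deposited table. The phosphatase CDC25B (0.65), the mitotic kinase PLK1 (0.98) and the condensin SMC2 (0.45) rose with CIT, and the securin PTTG1 fell by 0.51 in the authors' deposited table. The calls of RB1, POLE, PCNA, SMC2 and PTTG1 ended with the length-matched value.

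Lists of repair and death genes held few calls, to be read against 5.25% risen and 3.84% fallen of all measured genes. No direction of these lists is drawn from such small counts. Of 30 genes of homologous recombination and the Fanconi pathway FANCL rose by 0.64 and XRCC3 fell by 0.40 in the authors' deposited table. Targets of p53 numbered 23, of which 2 rose, TP53INP1 (0.93) and ZMAT3 (0.39), and 3 fell, AEN (-0.53), CCNG1 and FDXR (-0.50), in the authors' deposited table, and AEN holds an 8mer. In the BCL2 family the survival factor MCL1 (0.65) and the killer BCL2L11 (0.78) rose and BAD fell by 0.54 in the authors' deposited table. XRCC3, ZMAT3, FDXR and BAD were not called with the length-matched value, by which the counts were 2 rises and 1 fall for recombination, 2 and 4 for p53 targets and 2 and 0 for the BCL2 family.

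Genes of the integrated stress response differed between the lines. This pathway slows initiation through phosphorylation of eIF2 alpha and raises translation of ATF4, which drives amino acid and redox genes. In CaSki the list of 38 measured genes gave 4 rises and 1 fall (median 0.02, length-matched 3 rises and 2 falls), and in C-33A the median was 0.44 with 6 rises. Between lines 9 of the 38 differed, against 220 of 12905 genes measured in both lines (1.7%), 120 of them higher and 100 lower in CaSki. ATF4 fell by 0.63 (SE 0.121, adjusted p = 0.000113) in CaSki and stood at 0.57 in C-33A in the authors' deposited tables, a difference of -1.20 (SE 0.205). With the other CaSki mimics ATF4 stood at -0.52 and -0.38.

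The stress genes that differed most between lines were not called in CaSki, ATF4 aside. TRIB3, a pseudokinase, stood at -0.15 in CaSki and 1.32 in C-33A, and the cystine transporter SLC7A11 at -0.14 and 0.84, in the authors' deposited tables. The glutathione-degrading enzyme CHAC1 stood at -0.33 and 1.24 and the transcription factor CEBPB at -0.26 and 0.92 in the authors' deposited tables. DDIT3 (0.01 and 1.03) and STC2 (0.03 and 1.40), picked with their values known, lay in the same order. In CaSki the genes of this list that rose were the transcription factor CREB3L2 (0.91), the lipoprotein receptor VLDLR (0.75), HERPUD1 (0.56), which acts in endoplasmic reticulum degradation, and the phosphatase subunit PPP1R15B (0.42) in the authors' deposited table, of which VLDLR (0.43) lost its call with the length-matched value. The spread was pooled differently in the lines: solving the F score and p-value for the denominator degrees of freedom gave a median of 38.18 in CaSki and 244868 in C-33A, so the lines were not tested alike. With length-matched values in each line 34 genes differed, 25 of them among the 220. ATF4, TRIB3, SLC7A11 and STC2 still differed by them, whereas CHAC1, CEBPB and DDIT3 did not pass (adjusted p = 0.068, 0.113 and 0.217).

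Across the 12905 genes measured in both lines the log2 fold changes had a Pearson correlation of 0.03 and a Spearman rho of 0.01, and of 0.10 and 0.12 over 12645 genes with length-matched values. The lines share no library, but the genes are not independent points and share their length and base composition.

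Cholesterol genes gave 4 falls and 1 rise among 32 measured (length-matched 2 falls and 1 rise, contrast -0.09). The synthesis enzymes EBP (-0.59), MVD (-0.58), MSMO1 and FDFT1 (-0.37) fell in the authors' deposited table, and MVD and FDFT1 were not called with the length-matched value. The NRF2 antioxidant pathway had 4 falls and 0 rises among 26 measured genes (median -0.27, contrast -0.15): the ferritin light chain FTL (-0.49), NQO1 (-0.37), the thioredoxin reductase TXNRD1 (-0.38), which holds 2 matches including an 8mer, and TALDO1 (-0.38) in the authors' deposited table. With the length-matched value the NRF2 median was -0.19 with 3 fallen, and FTL (-0.18), NQO1 (-0.30) and TALDO1 (-0.13) were no longer called. The glycolytic enzyme GPI rose by 0.54 and TPI1 fell by 0.53 (length-matched -0.31, not called) in the authors' deposited table, and ALDOA rose by 0.81 at a log2 CPM of 2.77, and reads of this gene may be split with copies or overlapping models. In the list of methylarginine metabolism DDAH1 and the methyltransferase PRMT7 (-0.50) fell among 10, and DDAH2, a gene of the histocompatibility region, stood at -5.42 (SE 3.15) in the authors' deposited table and was not called.

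Among 371 measured zinc finger genes named ZNF, 12 rose and 5 fell, shares below the background, and 9 rose and 13 fell with the length-matched value. ZNF462 (0.85), ZNF318 (0.79), ZNF652 (0.79), ZNF609 (0.75) and ZNF592 (0.89) rose in the authors' deposited table, ZNF45 (-0.51), ZNF227 (-0.59), ZNF263 (-0.54), ZNF511 (-0.44) and ZNF219 (-0.55) fell, the last 4 picked with their values known, and ZNF652 differed between lines (adjusted p of the difference 0.0109, and 0.068 with length-matched values). ZNF609, ZNF592, ZNF511 and ZNF219 were not called with the length-matched value.

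Of 1900 measured long noncoding genes 49 rose (2.58%) and 14 fell (0.737%). NEAT1, the scaffold of nuclear paraspeckles, rose by 0.65 (SE 0.128, adjusted p = 0.000155) in the authors' deposited table and stood at -0.18 and -0.30 with the other CaSki mimics, a contrast of 0.89, but it was not called with the length-matched value (0.33, adjusted p = 0.0822). FTX, a transcript of the X-inactivation centre, rose by 0.69 in the authors' deposited table, with 0.11 and -0.05 with the other mimics. GAS5 (-0.56) and SNHG3 (-0.58), hosts of small nucleolar RNAs, fell in the authors' deposited table, as did SFTA1P (-0.61) and RNASEH1-DT (-0.77). Their contrasts between mimics were -0.12, -0.07, -0.10 and -0.30. The signal recognition particle RNA RN7SL1, picked with its value known, had the highest log2 CPM, 17.2, and stood at -0.72 (SE 0.57) in the authors' deposited table. RMRP stood at -1.27 (SE 0.697) at a log2 CPM of 13.7. Neither was called, and the part of the oligo(dT) enrichment in their levels was not tested.

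The change of a gene moved with the length of its transcript. Among measured protein coding genes with a length, the median rose from class to class without exception. It was -0.40 over 409 genes with transcripts under 1000 nt, of which 117 fell (28.6%) and 1 rose. It was -0.11 over 2652 genes of 2000 to 3000 nt and 0.06 over 1639 genes of 4000 to 5000 nt. At 8000 to 12000 nt the median was 0.26 over 801 genes, of which 164 rose (20.5%) and 0 fell, and at 12000 nt or more it was 0.33 over 257 genes, of which 73 rose (28.4%) and 2 fell. The measured rises had a median length of 6067 nt and the falls of 1671 nt. Between the shortest and longest classes the medians ran from -0.24 to 0.19 with miR-124-3p and from -0.15 to 0.12 with miR-218-5p in CaSki. In C-33A they ran from 0.03 to -0.02. In the contrast between mimics, in which the controls cancel, they ran from -0.17 to 0.17.

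GC content went the other way in CaSki, from a median of 0.08 below 40% GC to -0.20 at 60% or more. The length order held there within GC classes: below 47% GC the median was -0.19 under 2000 nt and 0.16 at 5000 nt or more. From 47 to 53% GC it was -0.24 and 0.29. In C-33A the order by GC was the opposite, from -0.09 below 40% GC to 0.16 at 60% or more. The Spearman rho with GC over measured genes was -0.24 in CaSki and 0.35 in C-33A. Its part in the differences between lines was not tested on its own. The lists of ribosomal proteins, histones and chromatin regulators lie at the ends of the range of lengths. Their length-matched medians are relative to all measured genes of like length and GC, coding or not. Among these, 949 measured pseudogenes had a median of 0.37 as deposited. Protein coding genes alone kept length-matched medians of -0.18 under 1000 nt and -0.07 from 1000 to 1500 nt. For lists of short coding genes the length-matched value thus does not remove the whole order by length.

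**Figure D5:**
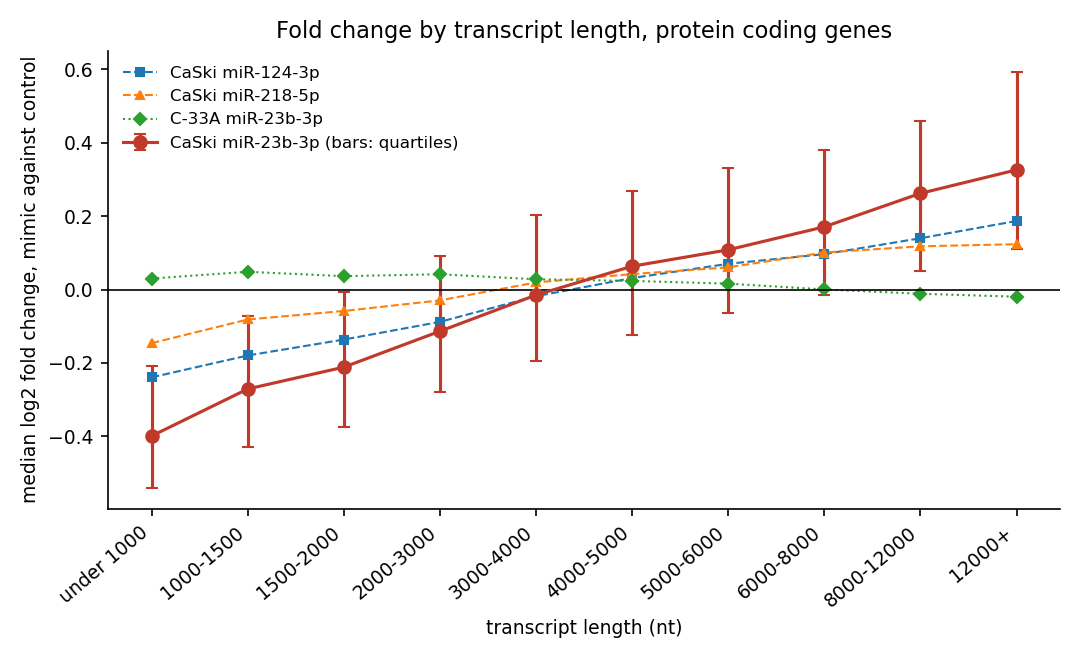
Median log2 fold change of mimic against control (y axis) in 10 classes of transcript length in nt (x axis) for measured protein coding genes, with quartiles for miR-23b-3p in CaSki. The miR-23b-3p medians climb from -0.40 to 0.33, those of the other CaSki mimics climb less, and those of C-33A lie between 0.05 and -0.02.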

How the data were processed

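RNA of 23 libraries was sequenced after oligo(dT) enrichment. Per the submitters' processing notes, the tools were STAR 2.7.10b, edgeR 3.36.0, featureCounts 2.0.3 and FastQC 0.73 with GRCh38 (hg38). For strand, the setting was not given in the sources used here. Per the file headers, each deposited table of the authors lists 61217 genes with 5 values: an F score, a p-value, an FDR, a log2 fold change and the mean abundance in log2 CPM. Recomputing a Benjamini-Hochberg adjustment over all listed genes gave the same FDR. The files used hold no counts, so the tests are the authors' edgeR quasi-likelihood tests, and depth is unknown. The SE was the log2 fold change over the normal quantile of the deposited p-value, and intervals are 1.96 SE. The CaSki F test had finite denominator degrees of freedom (median 38.18). This SE is thus larger there than the log2 fold change over the square root of F, and intervals of called genes are wider. The length-matched and line tests use this SE and were not run with an SE from F.

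Of the listed genes 57038 matched GENCODE 29 and 19003 had a 3' UTR. Length-matched values subtracted the median of 100 classes (20 of length, 5 of GC each), with a normal test and Benjamini-Hochberg adjustment; the difference between lines had a normal test. The scripts were tested on simulated data, with Python 3.11.15, pandas 2.3.3, numpy 2.4.6, SciPy 1.17.1 and matplotlib 3.10.9.

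The members and the 51 lists were chosen with earlier results of these data known. Named genes followed a rule: the 12 largest changes each way at a log2 CPM of at least 4, the lowest p each way, the called members of lowest p in each list, genes called in both lines or differing most between them, falls with an 8mer, called published targets, long noncoding genes of lowest p, and small families. Other genes are marked as picked with their values known, and some genes of these lists are not reported here. Alternatives changed the FDR, a fold minimum, the expression filter, the trend and the 3' UTR; the contrast between mimics and the medians without genes of SE over 1 were added after seeing the data.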

Additional observations from a re-analysis of the deposited data

Results flagged for a closer look

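The response to miR-23b-3p differed between CaSki and C-33A, by the test of the difference itself, in 220 of 12905 genes measured in both lines (edgeR statistics of the authors' deposited tables, Benjamini-Hochberg adjusted). The 8 genes of lowest p are given as CaSki minus C-33A on the log2 scale. Genes tied to the integrated stress response had lower changes in CaSki: TRIB3 differed by -1.47 (adjusted p = 1.63e-05), ATF4 by -1.20 (3.55e-05), CEBPB by -1.18 (0.000231), CHAC1 by -1.57 (0.000748) and SLC7A11 by -0.98 (0.00147). JDP2, a repressor of the AP-1 family, differed by -1.55 (4.32e-05), at -0.63 in CaSki and 0.92 in C-33A. The histone variant H2AX differed by -1.08 (0.00143). The pseudogene HNRNPA3P10 differed by 3.66 (0.000262), at 3.26 in CaSki with a log2 CPM of 0.15, and reads may be split with its parent gene. With length-matched values in each line, TRIB3, ATF4, JDP2, HNRNPA3P10 and SLC7A11 still differed, whereas CEBPB, CHAC1 and H2AX did not pass, with adjusted p of 0.113, 0.068 and 0.289.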

How the results depend on the processing

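No paired analysis was possible because the deposited files used hold no values per sample, and for the same reason leaving out each replicate was not run. The 1472 calls became 747 at an FDR under 0.01 (481 rises and 266 falls), 2542 when adjusted over genes at a log2 CPM of at least 0 (1414 rises and 1128 falls) and 2430 over those of at least 2 (1141 falls), and 301 falls reached 0.5 in size. With length-matched values there were 1445 calls. Of the 211 named genes that were called, 149 kept their call and 62 lost it with length-matched values, and 169 kept it at an FDR under 0.01. The line difference went from 220 genes to 34 with length-matched values. The difference between genes with and without seed matches changed sign with length-matched values, to -0.024 for 8mer or 7mer matches and -0.070 for 8mers. The subtraction used classes that mix coding and other genes. It was incomplete at the short end, where protein coding genes under 1000 nt kept a median of -0.18. The causes of these shifts were not tested. Without genes with an SE over 1, the cytosolic ribosomal protein median moved from -0.53 to -0.44 and the interferon response median from -0.19 to -0.12. Other list medians moved less, except that no mitochondrially encoded gene is left. Unknown depth and 3 libraries a group limit every value.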
